A study of Mus musculus with 19 samples.

Results

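Dendritic cells take up antigen in tissues and tumors, process it and show it to T cells. Conventional dendritic cells of type 1 depend on the transcription factor BATF3 and carry the chemokine receptor XCR1 and the dead-cell receptor CLEC9A, and they are known for presenting tumor antigen to CD8 T cells. Their growth factor, FLT3 ligand, acts through the receptor FLT3 on dendritic cells and their precursors. The 10 genes described here were Flt3l and Flt3 (ligand and receptor), Xcr1, Clec9a and Batf3 (conventional type 1), Cd209a (conventional type 2 and monocyte-derived cells), Siglech (plasmacytoid cells), Zbtb46 (a transcription factor of conventional cells), Itgax (the integrin CD11c) and Fscn1 (fascin, an actin-bundling protein of mature dendritic cells). They were chosen by symbol, with earlier results of these data known, and all 10 were found among 48795 genes.

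The genes were followed in RNA of 19 primary p53/MCA sarcomas, 11 labelled Rag2-/- and 8 labelled Rag2+/-. All mice, littermates aged 6 to 10 weeks at injection, received Adeno-sgp53-Cas9, an adenovirus that transiently delivers Cas9 with a guide against Trp53, in the gastrocnemius muscle, and then 300 µg of the carcinogen MCA at 6 µg/µl. Tumors of both groups therefore shared the Trp53 targeting and the carcinogen, were otherwise untreated, and were taken at about 70 to 150 mm3. Mice without RAG2 cannot assemble antigen receptors and so form no mature T or B cells, but they keep NK cells, macrophages and dendritic cells, whereas Rag2+/- mice have lymphocytes. Both sexes were used, and the labels do not give the sex of each mouse. Xist, the RNA that silences an X chromosome in female cells, was at 3.0 to 4.34 on the log2 scale used below in 10 tumors (7 Rag2-/- and 3 Rag2+/-) and at −3.32 to −1.83 in the other 9 (4 Rag2-/- and 5 Rag2+/-). Each library is bulk tumor, so that fewer dendritic cells and less RNA per cell cannot be told apart.

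Each value is the log2 of an upper-quartile normalized FPKM (fragments per kilobase of transcript and M mapped, scaled to the upper quartile of each library) to which 0.1 had been added, so that −3.32 is the lowest possible value and means a gene listed at 0. Depth, estimated from the steps between low values, was 25.3 to 33.7 M fragments in 17 tumors and 5.23 M in S41, and it could not be estimated in S56, where 42.5% of low values were whole multiples of 1 fragment (within 0.05), against 77.4% to 90.3% in the others. In the fit of all genes by limma, 24 of the 18374 genes tested differed between genotypes at an adjusted p under 0.05 (0.131%), and the 24 were lower in Rag2-/- tumors. Among them were the T cell genes Cd2, Cd3d, Cd3e, Cd3g, Cd5, Cd8a, Cd8b1 and Trac and the B lineage genes Cd79a, Igha, Igkc and Jchain. Cd3e was listed at 0 in all 11 Rag2-/- tumors and ranged from −0.61 to 2.90 in Rag2+/- tumors. Rag2 itself went the other way, at −0.34 ± 0.74 (SD, n = 11) in Rag2-/- and −1.31 ± 0.70 (SD, n = 8) in Rag2+/- tumors, and since the value counts the whole gene it does not show whether the disrupted part was transcribed. In their whole profile S56, S51, S59, S60 and S46 were least like the rest, with a median Spearman correlation with the other tumors of 0.71 to 0.82, against 0.87 to 0.95 for the remaining 14. S46, S51 and S56 were left out together as an alternative. The skeletal muscle gene mean was 11.60 to 13.27 in 5 tumors (S51, S52, S56, S59 and S60), all of them low in Xist, and 4.37 to 9.90 in the other 14. The 8 fibroblast and mesenchymal genes summed to 1126 to 4994 normalized FPKM in Rag2-/- and 1513 to 6804 in Rag2+/- tumors. No normal tissue was set beside them, so these sums do not check the label of a sarcoma. The mean of 6 cell cycle genes was 1.89 in S51, 2.68 in S56, 2.76 in S59 and 2.83 in S60. In the other tumors it was 4.14 (S52) to 5.69 (S48). The share of tumor cells in each library was not tested.

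None of the 10 dendritic cell genes differed between genotypes at an adjusted p under 0.05 in limma, where 0.131% of all genes tested did. The adjusted p was 0.327 for Flt3l and lay between 0.501 and 0.924 for the other 9. By a two-sided exact permutation test over the 75582 ways to choose 11 of 19 tumors, unadjusted, 1 of the 10 (Flt3l) had a p under 0.05, against 13.9% of all genes tested. Means were higher in Rag2-/- tumors for 6 genes and lower for 4, with a median difference of 0.09 on the log2 scale, against 0.07 over all genes tested. The groups overlapped for all 10 genes, and each ranged over more within either genotype than the 2 means differed.

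**Figure D1:**
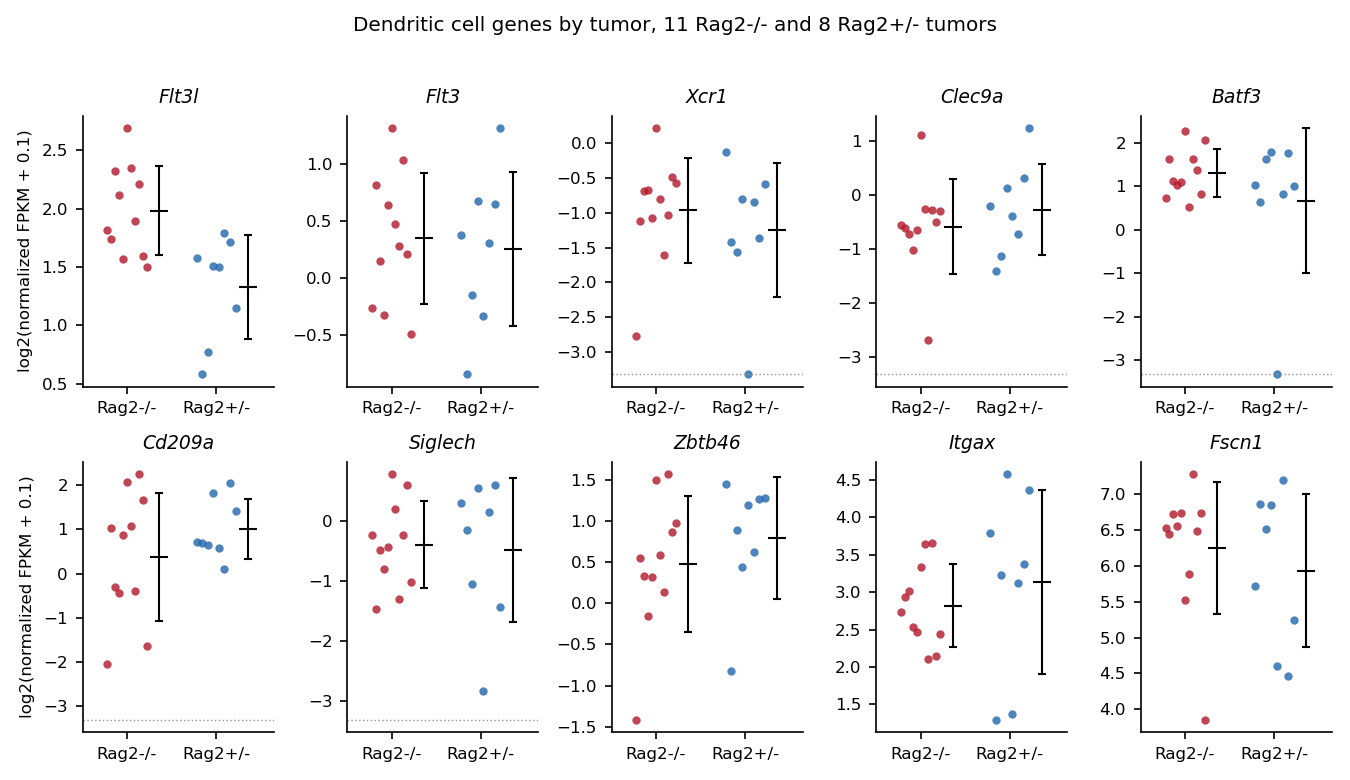
Values of the 10 dendritic cell genes in each tumor, as log2(upper-quartile normalized FPKM + 0.1), with 1 point a tumor (red, 11 Rag2-/-, and blue, 8 Rag2+/-) and the mean ± SD in black. A dotted line marks the lowest possible value of −3.32. For Flt3l, 7 of 11 Rag2-/- tumors lie above the highest Rag2+/- tumor, and the groups overlap for this and for the other 9 genes.

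Flt3l (ENSMUSG00000110206; GRCm38 chromosome 7, 45129788 to 45136432, minus strand) encodes FLT3 ligand, which drives dendritic cells to form from precursors and to expand. Its log2 value ran from 1.50 to 2.69 in Rag2-/- tumors, with a median of 1.89, and from 0.58 to 1.79 in Rag2+/- tumors, with a median of 1.50. The lowest Rag2-/- tumor, S51, lay just above the median of the Rag2+/- tumors, 7 Rag2-/- tumors lay above every Rag2+/- tumor, and 4 Rag2+/- tumors lay below every Rag2-/- tumor. The means were 1.98 ± 0.38 (SD, n = 11) and 1.32 ± 0.44 (SD, n = 8). They differed by 0.66 ± 0.20 (SE, with a 95% interval of 0.23 to 1.08), or 1.58-fold. The two-sided exact permutation test gave p = 0.00226, and limma gave an adjusted p of 0.327 over all genes, which does not pass. Under 30 of 31 alternatives tried, each tumor left out in turn included, the unadjusted p was at most 0.00977. The removal of S41 is entered 2 times among them. The exception was the 9 tumors low in Xist, where the difference was 0.45 (exact permutation p = 0.167, two-sided), against 1.02 in the 10 tumors high in Xist (exact permutation p = 0.00833, the smallest that 120 splits allow). Whether these 2 differ was not tested. Flt3l rested on an estimated 41 to 388 fragments per tumor. It shares 856 of its 3878 exonic bases with Gm45713, a gene on the same strand that reaches from Flt3l toward Rpl13a, and reads in that stretch could have been given to either. Summing the 2 genes gave a difference of 0.64 (exact permutation p = 0.0052, two-sided).

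Genes of NK cells, which Rag2-/- mice keep, had higher means in Rag2-/- tumors as well. Of 10 NK cell genes, none had an adjusted p under 0.05 in limma, 9 had higher means in Rag2-/- tumors, and 6 had an unadjusted exact permutation p under 0.05 (Eomes, Gzma, Klra8, Klrb1c, Ncr1 and Prf1, all higher), where 56.8% of all genes tested had higher means in Rag2-/- tumors and 13.9% had such a p. Their summed level was 17.9 to 109 normalized FPKM in Rag2-/- and 10.9 to 53.7 in Rag2+/- tumors, and no NK cell gene was listed at 0 throughout either group. Across the 19 tumors Flt3l and the mean of the NK cell list had a Pearson r of 0.52 (permutation p = 0.0216) and a Spearman rho of 0.47 (permutation p = 0.0444), which did not pass over the 40 relations of that kind computed (adjusted p of 0.0844 and 0.198), and r was 0.47 without S56 and S53. With each genotype centred on its own mean, r fell to 0.27 (permutation p = 0.256), and it was 0.12 within Rag2-/- and 0.41 within Rag2+/- tumors. The part of NK cells in the Flt3l difference was not tested. The NK cell list, like the others, was chosen with earlier results of these data known, so its counts are a description.

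The promoter of Flt3l is shown for the 1 gene of the 10 with an unadjusted p under 0.05. Beside it are those of Flt3 and Cd209a, the 1 pair of the 14 relations tested that passed by Spearman rho. Sequences are the 250 bases before the RefSeq start of each gene on GRCm38.p6, 5′ to 3′ on the gene's strand, with capitals for a match to any of 6 motifs searched on both strands. These were the PU.1 core GAGGAA, the ETS-IRF composite GGAANNGAAA, the interferon-stimulated response element GAAANNGAAA, the AP-1 site TGANTCA, the GC box GGGCGG and the TATA box TATAAA, of which the composite can overlap both the PU.1 core and the response element. Flt3l lies at chr7:45136433-45136682, Flt3 at chr5:147400490-147400739 and Cd209a at chr8:3748985-3749234, all on the minus strand.
Flt3l: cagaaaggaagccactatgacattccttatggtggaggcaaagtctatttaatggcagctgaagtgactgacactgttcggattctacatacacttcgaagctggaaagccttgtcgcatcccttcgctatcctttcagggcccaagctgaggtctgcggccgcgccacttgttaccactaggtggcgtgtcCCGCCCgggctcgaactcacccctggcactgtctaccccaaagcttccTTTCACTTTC
Flt3: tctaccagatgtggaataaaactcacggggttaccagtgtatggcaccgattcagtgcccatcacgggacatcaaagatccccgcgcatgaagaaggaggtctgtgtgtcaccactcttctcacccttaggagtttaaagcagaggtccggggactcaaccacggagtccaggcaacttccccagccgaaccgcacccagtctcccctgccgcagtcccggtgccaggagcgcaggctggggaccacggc
Cd209a: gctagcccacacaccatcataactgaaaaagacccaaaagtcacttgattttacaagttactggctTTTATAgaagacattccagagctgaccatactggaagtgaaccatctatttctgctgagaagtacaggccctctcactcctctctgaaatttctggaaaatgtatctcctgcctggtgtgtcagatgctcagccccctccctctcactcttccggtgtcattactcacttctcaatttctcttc

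The last 10 bases before the start of Flt3l match the interferon-stimulated response element on the opposite strand, a match held by 2.98% of the 32851 RefSeq promoters of the same length and by 1 of the 10 here. Flt3l also holds 1 GC box, from 58 to 53 bases before the start, a motif found in 32.7% of promoters. The window of Flt3 holds none of the 6 motifs, and that of Cd209a holds a TATA box match on the opposite strand, from 184 to 179 bases before the start, as 12.4% of promoters do. These are matches of letters and say nothing of binding. Of the other members, Fscn1 holds a TATA box match on the gene's strand, from 31 to 26 bases before the start, and Xcr1 and Clec9a each hold 1 on the opposite strand. Batf3 holds 1 PU.1 core (23.3% of promoters) and 5 GC boxes, Zbtb46 and Itgax each hold 1 AP-1 match (6.75%), and the ETS-IRF composite is in none of the 10 (2.3%). The RefSeq start used for Zbtb46 lies 35038 bases inside the gene model, and that for Batf3 567 bases inside, so these windows are not at the first base of the model.

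Flt3 (ENSMUSG00000042817; chromosome 5, 147330741 to 147400489, minus strand) encodes the receptor for FLT3 ligand on dendritic cells and early progenitors. It ran from −0.49 to 1.31 in Rag2-/- tumors (median 0.28) and from −0.84 to 1.31 in Rag2+/- tumors (median 0.34). The ranges nearly coincide. The difference was 0.10 (95% interval −0.52 to 0.72, limma adjusted p = 0.871, two-sided exact permutation p = 0.738), and with 1 tumor left out it ran from −0.06 (without S53) to 0.25 (without S60). Ligand and receptor were only loosely related across the 19 tumors, with a Pearson r of 0.43 and a Spearman rho of 0.30 (permutation adjusted p of 0.135 and 0.339 over 14 relations). Without the 2 tumors farthest from the median of Flt3, r was 0.45. Within Rag2-/- tumors r was 0.48, and −0.03 without S46 and S51, on which it rested, and within Rag2+/- tumors it was 0.50. Over the tumors without S46, S51 and S56, r was 0.28 and rho −0.02 (permutation adjusted p of 0.426 and 0.952).

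**Figure D2:**
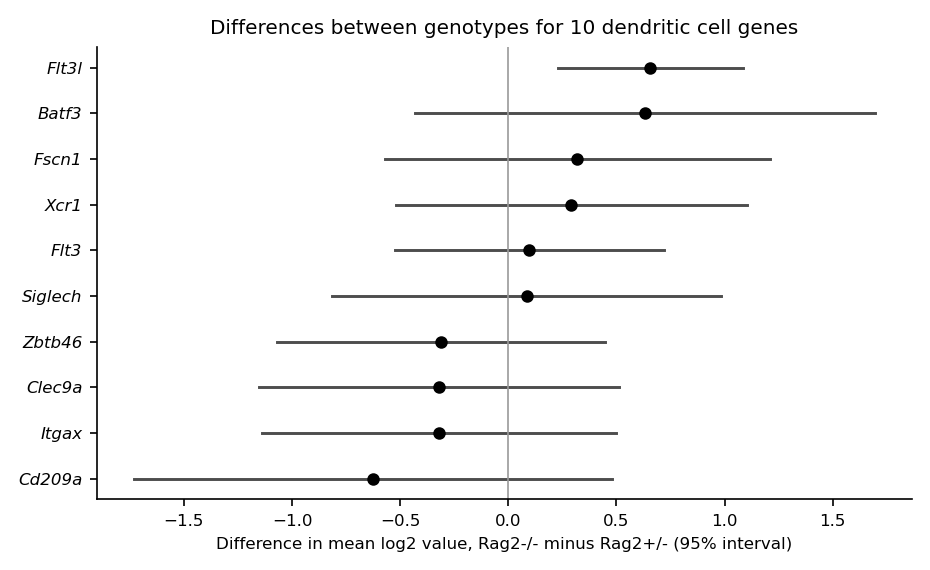
Difference in mean log2 value between Rag2-/- (n = 11) and Rag2+/- (n = 8) tumors for each of the 10 genes, with the 95% interval from limma. Points to the right are higher in Rag2-/- tumors. The interval leaves out 0 for Flt3l (0.23 to 1.08) and spans it for the other 9.

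The 3 genes of conventional type 1 cells were low and did not move in 1 direction. Xcr1 (ENSMUSG00000060509), the receptor for the chemokine XCL1, ran from −2.77 to 0.22 in Rag2-/- tumors (median −0.80) and from −3.32 to −0.13 in Rag2+/- tumors (median −1.10), a difference of 0.29 (95% interval −0.52 to 1.10, limma adjusted p = 0.686). Its lowest values were in S56, where it was listed at 0, and in S41, where it rested on about 1 fragment. Without S56 the difference was −0.004 (exact permutation p = 0.99, two-sided), and without S41 it was 0.47. Clec9a (ENSMUSG00000046080), which recognizes actin exposed on dead cells, ran from −2.69 to 1.12 in Rag2-/- tumors (median −0.55) and from −1.40 to 1.25 in Rag2+/- tumors (median −0.29), a difference of −0.32 (95% interval −1.15 to 0.51, limma adjusted p = 0.665). With 1 tumor left out, this difference ran from −0.49 (without S46) to −0.10 (without S60). It shares 184 of 3293 exonic bases with the platelet gene Clec1b on the same strand, whose means were −2.53 in Rag2-/- and −2.48 in Rag2+/- tumors. Batf3 (ENSMUSG00000026630), the transcription factor that type 1 cells need to form, ran from 0.53 to 2.26 in Rag2-/- tumors (median 1.12) and from −3.32 to 1.78 in Rag2+/- tumors (median 1.01). Its difference was 0.63 (95% interval −0.43 to 1.70, limma adjusted p = 0.501), but S56, where Batf3 was listed at 0, set most of it, and without that tumor it was 0.06 (exact permutation p = 0.808, two-sided). Batf3 is also expressed in other hematopoietic cells.

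Cd209a (ENSMUSG00000031494), a lectin of type 2 and monocyte-derived dendritic cells, had the widest spread in Rag2-/- tumors among the 10, from −2.06 to 2.26 (median 0.87), and ran from 0.10 to 2.06 in Rag2+/- tumors (median 0.71). The 5 lowest tumors were all Rag2-/-, and the 2 highest were as well. The difference was −0.63 (95% interval −1.73 to 0.48, limma adjusted p = 0.518). Its 2 lowest values, in S41 and S51, rested on about 1 and 5 fragments, and without S41 the difference was −0.38. Siglech (ENSMUSG00000051504), a surface lectin of plasmacytoid dendritic cells, ran from −1.47 to 0.78 in Rag2-/- tumors (median −0.43) and from −2.84 to 0.60 in Rag2+/- tumors (median −0.01). The difference of 0.09 (95% interval −0.81 to 0.99, limma adjusted p = 0.924) had no stable direction, since it was negative without S46, S50, S56 or S60 in turn, lowest at −0.25 without S56.

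Zbtb46 (ENSMUSG00000027583), a transcription factor that sets conventional dendritic cells apart from other myeloid cells and that endothelial cells also express, ran from −1.42 to 1.57 in Rag2-/- tumors (median 0.55) and from −0.82 to 1.45 in Rag2+/- tumors (median 1.04). The difference was −0.31 (95% interval −1.07 to 0.45, limma adjusted p = 0.642), which moved to −0.12 without S41 and to −0.54 without S53. Itgax (ENSMUSG00000030789) encodes CD11c, carried by dendritic cells and by many macrophages. It stayed between 2.11 and 3.66 in Rag2-/- tumors (median 2.73) and spread from 1.29 to 4.58 in Rag2+/- tumors (median 3.30), with S53 and S56 below every Rag2-/- tumor and S52, S55 and S60 above every one. The difference was −0.32 (95% interval −1.14 to 0.50, limma adjusted p = 0.659). It was −0.11 without S55, −0.15 without S60, −0.58 without S53 and −0.57 without S56. With the mean of 8 leukocyte genes as a covariate it was −0.64 (95% interval −1.26 to −0.03; limma unadjusted p = 0.0416, adjusted p = 0.396), the 1 alternative of 30 for Itgax in which the unadjusted p was under 0.05. Fscn1 (ENSMUSG00000029581) ran from 3.85 to 7.28 in Rag2-/- tumors (median 6.53) and from 4.47 to 7.19 in Rag2+/- tumors (median 6.11), a difference of 0.32 (95% interval −0.57 to 1.21, limma adjusted p = 0.687). It was 0.11 without S59, 0.13 without S56, 0.50 without S58 and 0.56 without S51.

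Levels, compared per transcript length as normalized FPKM after the 0.1 was taken off, spanned a wide range. Fscn1 stood far above the rest, at a median of 91.0 over the 19 tumors (14.3 to 155), and was higher than Itgax in every tumor. Itgax followed at 7.96 and was above Flt3l (3.18) in 18 of 19 tumors. Flt3l was above Batf3 (2.05) in 14. Below these the order was loose: Batf3 was above Cd209a (1.54) in 11 tumors and Cd209a above Zbtb46 (1.44) in 10, so these neighbors did not differ beyond their spread. Zbtb46 was above Flt3 (1.14) in 13, Flt3 above Siglech (0.748) in 16, Siglech above Clec9a (0.613) in 14 and Clec9a above Xcr1 (0.459) in 14. Xcr1 and Batf3 were listed at 0 in S56, which has no estimate of fragments. In the other 18 tumors the number of fragments behind a value fell lowest, to an estimated 1 in a tumor, for Xcr1 (highest 117) and Cd209a (highest 179), followed by Clec9a (5 to 168), Zbtb46 (7 to 392), Batf3 (8.3 to 129), Siglech (8.3 to 91.9) and Flt3 (13.9 to 231.5).

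**Figure D3:**
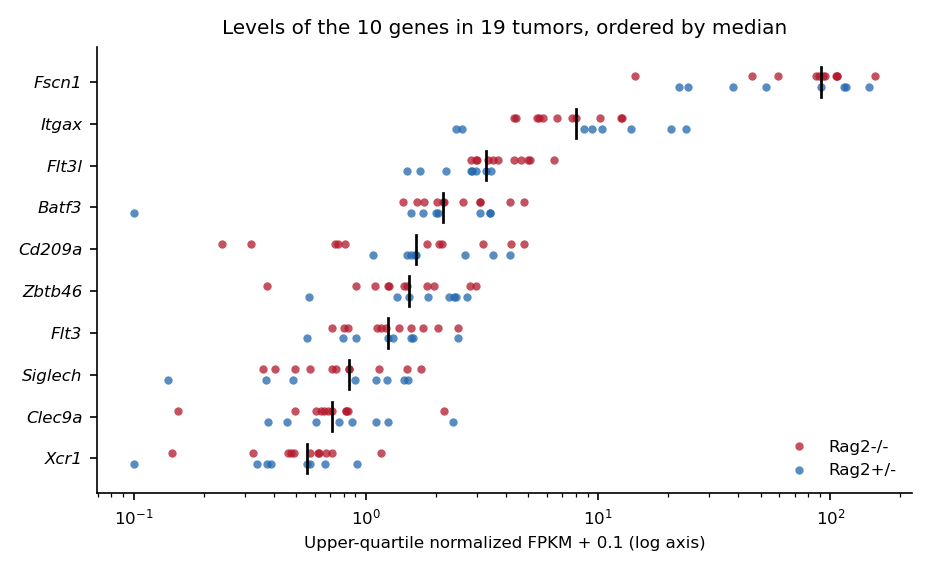
Level of each of the 10 genes in the 19 tumors, as upper-quartile normalized FPKM + 0.1 on a log axis, ordered by the median over all tumors (black bar), with red points for Rag2-/- and blue for Rag2+/- tumors. Fscn1 lies above the other genes in every tumor, Batf3 and Xcr1 each have 1 Rag2+/- tumor (S56) at the lowest possible value, and the middle of the order overlaps.

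Some tumors were high or low for many of the genes at once. S46 had the highest Rag2-/- value of 6 genes (Xcr1, Clec9a, Batf3, Flt3, Siglech and Flt3l) and lay above the Rag2-/- median for 9 of 10. It also had the highest leukocyte gene mean of the 19 tumors, 7.12, against 5.53 to 6.58 in the other Rag2-/- tumors. At the other end, S53 had the lowest Rag2+/- value of 5 genes (Clec9a, Flt3, Zbtb46, Itgax and Flt3l) and S56 of 3, and each lay above the Rag2+/- median for 1 gene. Their leukocyte gene means, 5.56 and 4.71, were the lowest of the Rag2+/- tumors. S41, the shallow library, had the lowest Rag2-/- value of Xcr1, Zbtb46 and Cd209a.

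Of 14 relations between genes put to a test, 1 passed by Spearman rho. Pairs of members outside these 14 were given a rho without a p. These ran from −0.665 (Fscn1 with Clec9a and with Zbtb46) to 0.726 (Flt3 with Itgax). Flt3 and Cd209a rose and fell together across the 19 tumors, with a Spearman rho of 0.78 (permutation adjusted p = 0.00252) and a Pearson r of 0.67 (permutation adjusted p = 0.0239), and r was 0.78 without the 2 tumors most distant from the median Flt3 value. Pearson r did not pass in the 15 tumors of the published figure (0.56, permutation adjusted p = 0.164) or without S46, S51 and S56 (0.59, permutation adjusted p = 0.108). In these 2 sets the relation passed by rho, at 0.725 (permutation adjusted p = 0.0410) and 0.75 (permutation adjusted p = 0.0162). The rho was 0.83 within Rag2-/- tumors (permutation adjusted p = 0.0363) and 0.69 within Rag2+/- tumors (permutation adjusted p = 0.245). With both genes taken as residuals on the leukocyte gene mean, rho was 0.73 (permutation adjusted p = 0.00896). By Pearson r, Flt3 and Zbtb46 (0.57) and Xcr1 and Batf3 (0.66) also passed (permutation adjusted p = 0.0456 for both), while their rho of 0.49 and 0.25 did not (permutation adjusted p of 0.121 and 0.357). Without S53 and S60 the r of Flt3 and Zbtb46 was 0.43. It was 0.72 in the 15 tumors of the published figure and without S46, S51 and S56 (permutation adjusted p of 0.0403 and 0.0249). With genotypes centred on their means it was 0.60 (permutation adjusted p = 0.0206). It did not pass without S41 (0.57, permutation adjusted p = 0.0749), with a pseudocount of 1, as leukocyte residuals or within either genotype. By rho the relation passed in none of these settings. The Xcr1 and Batf3 relation rested on S56 and S41, without which r was 0.07. Within genotypes, centred on their means, Itgax and the macrophage gene Adgre1 also passed (rho 0.69, permutation adjusted p = 0.0118), while as residuals on the leukocyte gene mean their rho was −0.46 (permutation adjusted p = 0.198).

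Other relations passed by neither measure over the 19 tumors. With genotypes centred on their means, Itgax and the leukocyte gene Ptprc passed by Pearson r (0.63, permutation adjusted p = 0.0206). They did not pass by rho (0.53, permutation adjusted p = 0.0759). Xcr1 and Clec9a, markers of the same cell type, had an r of 0.36 and a rho of 0.47 (permutation adjusted p of 0.186 and 0.121), and r was 0.65 without the 2 tumors farthest from the median of Xcr1. Clec9a and Batf3 had an r of 0.07 and a rho of 0.23 (permutation adjusted p of 0.695 and 0.375). Fscn1 and Ccr7, the chemokine receptor that takes mature dendritic cells to lymph nodes, had an r of −0.10 and a rho of −0.32 (permutation adjusted p of 0.695 and 0.339). Xcr1 and its ligand gene Xcl1 had an r of 0.34 and a rho of 0.11 (permutation adjusted p of 0.191 and 0.662), although Xcl1, which NK and T cells make, was at 1.82 ± 0.67 (SD, n = 11) in Rag2-/- and −0.34 ± 1.99 (SD, n = 8) in Rag2+/- tumors (limma adjusted p = 0.306; two-sided exact permutation p = 0.00108, unadjusted). Zbtb46 and the endothelial gene Cdh5 had an r of 0.38 and a rho of 0.26 (permutation adjusted p of 0.163 and 0.357).

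Fscn1 moved with genes of mesenchymal cells and against genes of skeletal muscle by Pearson r. Against the mean of 8 fibroblast and mesenchymal genes its r was 0.88 (permutation adjusted p = 0.0004 over 40 relations) and its Spearman rho 0.61 (adjusted p = 0.0804). Against the mean of 10 skeletal muscle genes they were −0.79 (permutation adjusted p = 0.0008) and −0.70 (adjusted p = 0.056). The 5 tumors with the highest muscle gene mean had Fscn1 at 3.85 to 5.72, and the other 14 at 5.52 to 7.28. Within those 14, r was 0.24 for the mesenchymal genes (permutation adjusted p = 0.649) and −0.38 for the muscle genes (permutation adjusted p = 0.439). That split was made after the values were seen and narrows the range of the muscle gene mean, which by itself tends to lower r, so it does not show whether the relations hold in the 14. The 5 are too few for a value of their own.

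When only the 2 tumors most distant from the list's median were left out, r was 0.75 for the mesenchymal and −0.73 for the muscle genes. The same r was 0.89 and −0.72 within Rag2-/- tumors, where it was −0.10 without S51 and S46 and −0.12 without S51 and S48, so that in this group the relations rested on those tumors. Within Rag2+/- tumors r was 0.86 and −0.92, and 0.93 and −0.93 without the 2 farthest. With genotypes centred on their means, rho was 0.66 (permutation adjusted p = 0.0297) and −0.81 (permutation adjusted p = 0.0028). Against the leukocyte gene mean, r was −0.10 (permutation adjusted p = 0.74) and rho −0.34 over all tumors, while within Rag2-/- tumors they were −0.67 (permutation adjusted p = 0.319) and −0.92 (permutation adjusted p = 0.0056). Fascin is also made by many mesenchymal and tumor cells, and the values do not show which cells made it.

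**Figure D4:**
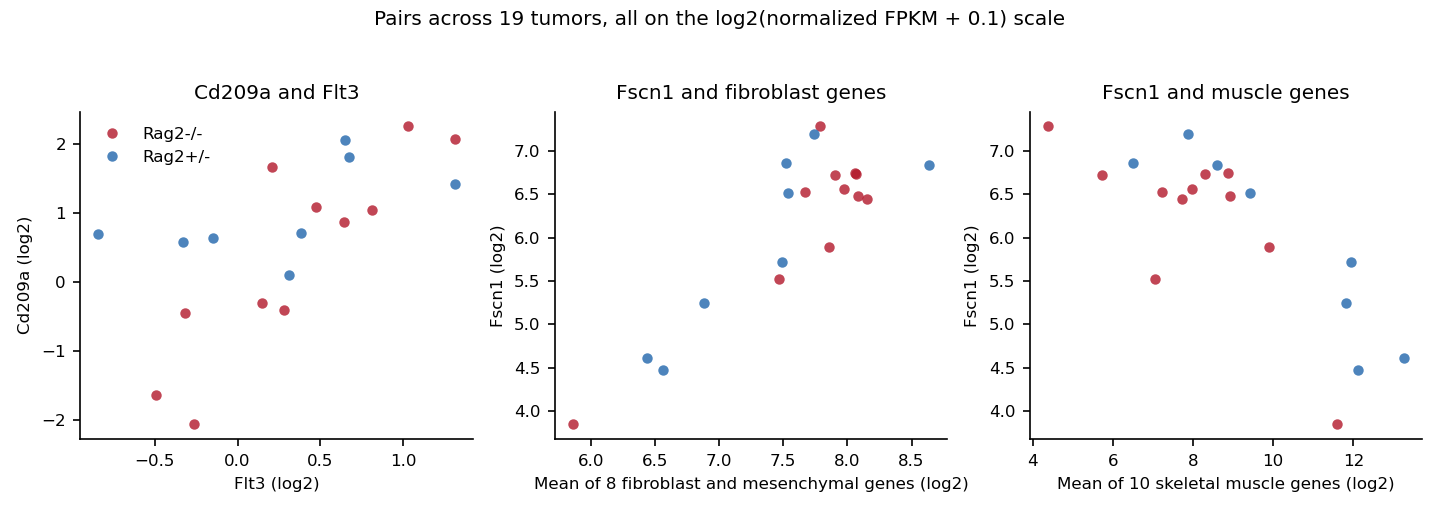
Pairs across the 19 tumors, 1 point a tumor (red, Rag2-/-, and blue, Rag2+/-), both axes on the log2(normalized FPKM + 0.1) scale: Cd209a against Flt3, and Fscn1 against the mean of 8 fibroblast and mesenchymal genes and of 10 skeletal muscle genes. Cd209a rises with Flt3 (rho 0.78), and Fscn1 rises with the mesenchymal genes (r 0.88) and falls with the muscle genes (r −0.79), with the 5 tumors of highest muscle mean, at 11.60 to 13.27, apart from the others and low in Fscn1.

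Of the other members, Itgax (r 0.64) and Batf3 (r 0.77) passed against the leukocyte gene mean by Pearson r (permutation adjusted p of 0.0318 and 0.00453), though by Spearman rho, at 0.57 and 0.55, they did not (permutation adjusted p of 0.0903 and 0.0997). The Batf3 relation fell to r = 0.41 without S56 and S46, and the Itgax relation kept r = 0.60. With genotypes centred on their means, Clec9a, Batf3 and Itgax passed against leukocyte genes by rho (0.64, 0.63 and 0.64; permutation adjusted p = 0.0297 for each), and Zbtb46 passed against skeletal muscle genes (rho 0.64, permutation adjusted p = 0.0297). In the 14 tumors of lower muscle mean, Clec9a against leukocyte genes was the 1 relation of 40 to pass by Pearson r (0.79, permutation adjusted p = 0.044). By Spearman rho none passed there, Clec9a included (0.705, permutation adjusted p = 0.135). Itgax and Batf3 against the same list had r of 0.72 and 0.52 in these tumors (permutation adjusted p of 0.0657 and 0.286). The skeletal muscle genes themselves were lower in Rag2-/- tumors in 10 of 10 means, with 5 at an unadjusted exact permutation p under 0.05 and none called by limma, where 13.9% of all genes tested had such a p and 56.8% had higher means in Rag2-/- tumors. With their mean as a covariate, the differences of Clec9a and Zbtb46 turned from −0.32 and −0.31 to 0.16 and 0.15, and that of Fscn1 from 0.32 to −0.51 (limma unadjusted p of 0.697, 0.681 and 0.0879). With Xist as a covariate they were −0.07, −0.01 and 0.02 (limma unadjusted p of 0.847, 0.975 and 0.968). Within tumors high in Xist the 3 differences were −0.13, −0.12 and −0.14, and within those low in Xist −0.04, 0.07 and 0.20 (exact permutation p of 0.558 to 0.937, two-sided). The difference of Cd209a was −1.08 in tumors high and 0.12 in those low in Xist (exact permutation p of 0.208 and 0.913, two-sided), and that of Batf3 was −0.24 and 1.38 (0.467 and 0.19), with S56 among those low in Xist. All 5 tumors of highest muscle mean were low in Xist, and the part of each in these values was otherwise not tested.

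The genes whose pattern over the 19 tumors was most like each member, by Spearman rho among the genes tested, are given as a description. Cd209a was followed by Arsi (0.83), Mgl2 (0.80), a lectin of type 2 dendritic cells and macrophages, and Gprin3 (0.80). Flt3 was followed by Fam102a (0.87), Slc37a2 (0.85) and Lipa (0.84), and Cd209a stood 18th among 18374 genes for Flt3. Itgax was followed by Acp5 (0.88), Gm2a (0.85) and Dcstamp (0.85), a fusion receptor of macrophages and osteoclasts. Fscn1 was followed by Maged1 (0.97), Vasn (0.94) and Gtf2ird1 (0.94), and Clec9a by Shtn1 (0.91), Scara5 (0.90) and Ablim1 (0.89). The others were Ttc7b, Acaa2 and Sox13 for Zbtb46 (0.85 to 0.86), Zfp810, Yipf1 and Cela1 for Flt3l (0.81 to 0.82), Abcg4, A530020G20Rik and Gm4070 for Xcr1 (0.78 to 0.82), Btg1 and Angptl4 for Batf3 (0.79) and Cdkl4, Kbtbd11 and Xlr4a for Siglech (0.77 to 0.79). Apart from Mgl2, none of these genes was on a dendritic cell list.

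The wider set of dendritic cell genes, 74 on 6 lists of which 72 could be tested, had none with an adjusted p under 0.05 in limma. Of the 72, 36 had higher and 36 lower means in Rag2-/- tumors, with a median difference of 0.03. Unadjusted, the exact permutation p was under 0.05 for 12 (16.7%, against 13.9% of all genes), 8 higher and 4 lower. The genes named next were chosen after their values were seen. Of 12 type 1 genes, 7 had higher and 5 had lower means in Rag2-/- tumors. The 1 with an unadjusted exact permutation p under 0.05 was Tlr3, a sensor of double-stranded RNA. It was at 3.19 ± 0.36 (SD, n = 11) in Rag2-/- and 2.28 ± 0.64 (SD, n = 8) in Rag2+/- tumors. The values do not show which cells made it. Of 12 type 2 genes those with such a p were Ccr2 and Notch2, with higher means in Rag2-/- tumors, and Cd24a, with a lower one. Of 13 plasmacytoid genes they were Bst2, Irf7, Tlr7 and Tlr9, higher, and Cox6a2 and Klk1, lower. Bst2 and Irf7 are interferon-induced in many cells, and Cox6a2 is a respiratory chain subunit of muscle as well. Of 15 tested genes of mature cells it was Il12b, the shared subunit of IL-12 and IL-23, lower at −0.30 ± 0.57 (SD, n = 11) against 0.51 ± 0.88 (SD, n = 8). Of 12 tested growth and recruitment genes it was Xcl1, and of 8 MHC class II genes none.

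Macrophage and monocyte genes were measured beside these, since macrophages share Itgax and MHC class II with dendritic cells. None of 12 was called by limma, 10 had higher means in Rag2-/- tumors, and 1 (Fcgr1) had an unadjusted exact permutation p under 0.05, again against 56.8% and 13.9% of all genes tested. Their summed level was 1295 to 3703 normalized FPKM in Rag2-/- and 651 to 2220 in Rag2+/- tumors. The sum of the 8 MHC class II genes was 946 to 3432 and 528 to 4097. Their part in the values of Itgax was not tested beyond the relations given above.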

How the data were processed

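RNA of 19 tumors was sequenced in 150 base pair pairs after a NEBNext Ultra II preparation that is not stated to be stranded. The authors aligned reads to mouse B38 with the Omicsoft aligner, quantified Ensembl R86 genes and deposited log2 values of upper-quartile normalized FPKM, and 0.1 had been added. The submitters' processing notes name Trimmomatic 0.36, STAR 5.5.4b, HTSeq and mm10 instead. Since the deposited values are normalized, no test for counts was applied. All 19 columns were matched to a tumor.

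Genes above the lowest value in at least 8 tumors were tested with limma 3.58.1 (R 4.3.3, intensity trend, Benjamini-Hochberg adjustment), and members by exact permutation. The test was also run on simulated differences, with an outcome not given here, so the size of difference it could miss is not shown. Relations used 100000 permutations, with a smallest p of 1e-05. Depth was estimated with GENCODE vM21 on GRCm38. Alternatives changed tumors, pseudocount (1 and 0.01), normalization, filter, variance model and covariates (Xist, muscle and leukocyte genes). Named genes were the members, the 3 most like each, genes of the 14 relations and list genes called by limma. List genes with an unadjusted exact p under 0.05 were also named, chosen after their values were seen. A gene among those most like Batf3 is not reported here. Members and lists were chosen with earlier results of these data known. The removal of S46, S51 and S56, the sum with Gm45713 the differences within tumors high or low in Xist, the 40 relations with cell type lists and their repeat without the 5 tumors of highest muscle mean were added after seeing the values. Python 3.11.15, numpy 2.4.6, pandas 2.3.3, scipy 1.17.1 and matplotlib 3.10.9 were used. Promoters are from RefSeq on GRCm38.p6, with 10 of 10 members matched. Each library is 1 tumor, and p-values measure the spread between tumors.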

Additional observations from a re-analysis of the deposited data

Results flagged for a closer look

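In the 8 Rag2+/- tumors, 3 of the 10 genes had a lowest tumor whose gap to the next, divided by the whole range, was above Dixon's 95% critical value of 0.526; chance gives such a flag in about 1 in 20 groups, and the 11 Rag2-/- tumors were not tested in this way. Xcr1 was at −3.32, listed at 0, in S56, with the next tumor at −1.56 (0.552 of the range). Batf3 was at −3.32 in S56 as well, with the next tumor at 0.64 (0.777 of the range). Zbtb46 was at −0.82 in S53, with the next tumor at 0.44 (0.554 of the range). The position of a value listed at 0 is set by the added 0.1: with 1 added in its place the shares were 0.36 for Xcr1, 0.614 for Batf3 and 0.474 for Zbtb46, and only that of Batf3 was above the critical value. S56 had the lowest leukocyte gene mean of the 19 tumors (4.71) and the highest skeletal muscle gene mean (13.27), and its low values were whole multiples of 1 fragment less often (42.5%) than those of the others (77.4% to 90.3%). The part of these in the values was not tested.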

How the results depend on the processing

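None of the members and none of the other dendritic cell genes was called by limma under any of the 32 alternatives, of which the filter on a mean log2 value above 0 left 7 members and 54 of the other 72 to test. The count of members with an exact p under 0.05 was 1 under 25 alternatives. In all counts of alternatives given here and above, the removal of S41 is entered 2 times. The number of genes called among all genes was 24 and moved to 46 with the 15 tumors of the published figure, 4 with genes of mean log2 value above 0 only, 55 with tumor quality weights and 47 without S46, S51 and S56; it ranged from 20 to 43 as each tumor was left out (43 without S51), and the cause was not tested. With genotypes centred on their means, 2 relations passed by Spearman rho in place of 1. By exact permutation, 1 member had a p under 0.05 in the 10 tumors high in Xist but 0 in the 9 low in Xist (Flt3l 0.45, p = 0.167). Without S46, S51 and S56 the differences of Xcr1, Batf3 and Siglech were −0.18, −0.13 and −0.31, opposite to those over all tumors. With the leukocyte list as a covariate the differences of Flt3 and Siglech were −0.06 and −0.20. No paired analysis was possible because the labels give the tumors no shared replicate numbers. Where fragments could be estimated, Xcr1 and Cd209a rested on as few as 1 in a tumor, Clec9a on 5 and Zbtb46 on 7, and what difference this depth could show was not tested.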
